A study of Mus musculus with 4 samples.

Results

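Cxcl1, Cxcl2, Cxcl3, Cxcl5, Cxcl10, Cxcl12, Cxcl16, Ccl2 and Ccl7 are 9 chemokine genes of the 32285 genes in the count tables of a single-cell RNA-seq experiment on mouse skeletal muscle stem cells (MuSCs). They were selected on their measured levels in activated MuSCs of these same data, so their levels across cell states are given as a description, with no test. Control mice were C57BL/6J animals carrying Pax7CreERT2/+ and Rosa26-tdTomato. Conditional knockout mice (α-cdKO) carried both of these and also floxed alleles of Ctnna1 (αE-catenin) and Ctnna3 (αT-catenin), genes whose products tie cadherins to actin. All mice were 3 to 4 months old and received tamoxifen on 5 days, controls included, and tdTomato+ cells were sorted from muscle 14 days later. Cre acts in cells that express Pax7, and the design compares cells of mice with and without the floxed α-catenin alleles. Loss of α-catenin protein in the sorted cells was not measured here, so α-cdKO samples may include cells that kept it. Each genotype has 2 samples and each sample pools 2 littermates.

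Chemokines are small secreted proteins that draw leukocytes and other cells along gradients by way of G-protein-coupled receptors. Cxcl1, Cxcl2, Cxcl3 and Cxcl5 belong to the branch that binds Cxcr2 and recruits neutrophils, Ccl2 and Ccl7 bind Ccr2 and recruit monocytes, and Cxcl10 is an interferon-induced ligand of Cxcr3 on T cells. Cxcl12 binds Cxcr4 and Ackr3 and holds or guides stem and progenitor cells, and Cxcl16 is a membrane-anchored ligand of Cxcr6 that can be shed. In injured muscle such signals are known to bring in the myeloid cells that accompany repair, and several of these genes are textbook targets of the transcription factor NF-kappaB.

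On GRCm38, with the GENCODE vM21 annotation, the neutrophil ligands stand together on chromosome 5. Cxcl5 (chr5:90759360-90761624), Cxcl3 (chr5:90786103-90789600), Cxcl1 (chr5:90891241-90893115) and Cxcl2 (chr5:90903871-90905938) are all on the plus strand with 4 exons each, and Cxcl1 and Cxcl2 are 12.6 kb apart. Cxcl10 (chr5:92346638-92348889, minus strand) lies 1445.0 kb beyond Cxcl2. Ccl2 (chr11:82035571-82037453) and Ccl7 (chr11:82045712-82047525) are neighbours on the plus strand of chromosome 11, 10.1 kb apart, with 3 exons each. Cxcl16 (chr11:70453983-70459984, minus strand) is elsewhere on that chromosome, and Cxcl12 (chr6:117168535-117181367, plus strand) is on chromosome 6.

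RefSeq promoter sequences on GRCm38.p6 were matched for 5 members, Cxcl1, Cxcl2, Cxcl3, Cxcl10 and Cxcl12. They are shown because a match to the NF-kappaB consensus was found upstream of 4 of these 5 genes, against 7.25% of 32841 promoters of the same length. Each stretch below is written 5′ to 3′ on the strand of its gene and ends before the gene's start in GENCODE or RefSeq, whichever comes first. Positions below are counted from the RefSeq start, upstream of which 250 bases were searched on both strands; that start lies directly after the printed stretch in Cxcl3 and Cxcl10, but 4 bases further on in Cxcl1 and 28 in Cxcl2. Capitals mark the NF-kappaB consensus and, in Cxcl10, also the core of the interferon-stimulated response element (GAAANNGAAA).
Cxcl1, chr5:90891145-90891240, plus strand: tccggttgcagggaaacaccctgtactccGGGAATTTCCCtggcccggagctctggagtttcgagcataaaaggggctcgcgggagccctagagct
Cxcl2, chr5:90903779-90903870, plus strand: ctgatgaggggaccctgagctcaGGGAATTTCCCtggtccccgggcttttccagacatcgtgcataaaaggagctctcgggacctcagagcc
Cxcl3, chr5:90785981-90786100, plus strand: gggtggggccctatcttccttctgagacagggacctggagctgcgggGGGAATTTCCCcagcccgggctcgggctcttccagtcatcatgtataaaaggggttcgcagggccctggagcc
Cxcl10, chr5:92348890-92349109, minus strand: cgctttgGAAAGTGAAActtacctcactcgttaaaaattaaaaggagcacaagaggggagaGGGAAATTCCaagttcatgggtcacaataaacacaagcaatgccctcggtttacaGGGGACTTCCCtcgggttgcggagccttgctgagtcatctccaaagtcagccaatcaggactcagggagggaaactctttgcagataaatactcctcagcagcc
The run GGGAATTTCCC stood in all 3 neutrophil ligands, beginning 71 bases before the RefSeq start in Cxcl1, 97 in Cxcl2 and 73 in Cxcl3. Cxcl10 held a pair of matches, at 159 and 104 bases, and it was the only one of the 5 with the interferon element (213 bases before its start, found in 2.98% of promoters) or with the AP-1 heptamer TGANTCA (74 bases before its start, found in 6.75% of promoters). The TATA box, searched as TATAAA, was found in Cxcl3 alone of the 5, at 30 bases before the start, against 12.4% of promoters. These matches describe letters in the sequence and were not tested as binding sites.

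Of 31254 barcodes in the 4 tables, 28790 passed the limits of 1000 UMIs, 400 genes and under 15% mitochondrial UMIs, with 5354 to 9786 cells per sample. Total UMIs (unique molecular identifiers, each standing for 1 captured transcript) ran from 46099310 to 74921651 per sample, and the median per kept cell from 6452.5 to 8075. Pairs of libraries shared 10 to 28 barcodes, at most 0.427% of a library. Ctnna1 stood at 91.1 and 74.8 UMIs per 1000000 UMIs (CPM) in control and at 79.4 and 75.5 in α-cdKO myogenic cells, and Ctnna3 at 1 to 7 UMIs per sample. Whether these 3′ tags fall in the deleted part is not given in the sources used here, so they check no label. A library that stood apart was α-cdKO replicate 1, in which 52.6% of myogenic cells had Xist UMIs and no Y-linked UMIs and 30.2% had the reverse, while in each of the other 3 samples 80.0% to 82.0% had Y-linked UMIs and at most 1 cell had Xist alone. Levels in activated-like cells are therefore given below also within the cells with Y-linked UMIs.

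Clusters were made with the 9 members left out of the clustering genes, and were named from marker lists. Among 27144 myogenic cells, 43.6% were activated-like, with Myod1, the myogenic commitment factor, at 874 CPM against 130.1 in quiescent-like cells. Quiescent-like cells were 19.5%, with Pax7 at 177.6 CPM against 37.98 in activated-like cells and Hes1, a Notch target, at 530.2 against 37.52. A further 32.2% formed a cluster that no marker list named and that was led by the chaperone genes Dnaja4, Dnaja1 and Hspe1; it is called chaperone-led here. Cycling-like cells (636) and differentiated-like cells (627) were the smallest myogenic classes, and 1331 mature-muscle-like cells were kept apart as a measure of free RNA.

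The neutrophil ligands were highest in activated-like cells. In every sample Cxcl1, Cxcl2, Cxcl3 and Cxcl5, and also Cxcl16, had their highest level of the 5 myogenic states there. CPM are UMIs of 1 gene per 1000000 UMIs, summed over the cells of a state in a sample. They come from the 3′ end and are not scaled for transcript length, so levels are compared between states and samples for 1 gene at a time, not between genes.

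Cxcl1 stood at 1892 and 3524 CPM in activated-like cells of the control samples and at 2385 and 3240 CPM in those of the α-cdKO samples. In quiescent-like cells the same samples gave 757.1, 1078, 622.2 and 1058 CPM. The states did not overlap, and the log2 ratio of activated-like over quiescent-like cells, taken with 5 CPM added, was 1.64 ± 0.25 (SD, n = 4). The chaperone-led cluster came between them at 1645 ± 465 CPM (SD, n = 4); its range across samples overlapped that of activated-like cells but it was lower within each sample. Cycling-like cells (471.8 ± 80.2 CPM) and differentiated-like cells (199.7 ± 173 CPM) came last.

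Cxcl2 stood at 645.1, 1517, 982.2 and 1381 CPM in activated-like cells, in the order control replicates 1 and 2, α-cdKO replicates 1 and 2, which is kept below. Quiescent-like cells had 91.9, 115.1, 102.3 and 164.4 CPM. Even the lowest activated-like sample was above the highest quiescent-like one, with a log2 ratio of 3.16 ± 0.38 (SD, n = 4). Control replicate 1 was the lowest and control replicate 2 the highest activated-like sample for both Cxcl1 and Cxcl2.

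Cxcl3 stood at 62.2, 159.8, 100.9 and 102.2 CPM in activated-like cells. In quiescent-like cells 3, 21, 4 and 72 UMIs were counted, or 0.462 to 6.22 CPM, and α-cdKO replicate 2 held 72 of these 100 UMIs. The log2 ratio was 3.90 ± 0.56 (SD, n = 4), the highest among the 9 genes when 5 CPM are added. Cxcl5 stood at 24.9, 51.5, 16.7 and 19.5 CPM in activated-like cells, and both control samples were above both α-cdKO samples. Quiescent-like cells gave 8 Cxcl5 UMIs in all 4 samples together, against 2373 in activated-like cells. The Cxcl5 log2 ratio, 2.56 ± 0.60 (SD, n = 4), is held down by the 5 CPM added. Its mean quiescent-like level was 0.213 CPM, so the ratios of Cxcl3 and Cxcl5 do not rank their gaps. The chaperone-led cluster was intermediate for Cxcl2 (570.2 ± 221 CPM), Cxcl3 (36.6 ± 11.8 CPM) and Cxcl5 (8.03 ± 3.83 CPM; SD, n = 4 for each).

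Cxcl16 was scarce, at 7.45, 8.77, 5.83 and 6.49 CPM in activated-like cells and 5.54, 2.61, 2.11 and 2.76 CPM in quiescent-like cells. It was higher in activated-like cells within each sample, and the log2 ratio was 0.57 ± 0.25 (SD, n = 4). Of the genes that cut it from the membrane or share its surface, the sheddases Adam10 and Adam17 and the proteoglycans Sdc1 and Sdc4 were all at 1 CPM or more in activated-like cells. They did not move together between states. Sdc4 was higher in activated-like cells, at 3591 CPM against 863.9 in quiescent-like cells. Adam10 (13.8 against 27.9 CPM) and Sdc1 (5.36 against 7.15 CPM) were lower, and Adam17 was level at 12.7 CPM in both.

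Cxcl10 went the other way, and the data go against the label of an activated-cell chemokine for it. Activated-like cells had 2.27, 4.51, 1.71 and 5.35 CPM, the lowest of the 5 states in every sample. Quiescent-like cells had 20.0, 68.4, 59.3 and 42 CPM, above activated-like cells in every sample, and the log2 ratio was -2.54 ± 0.68 (SD, n = 4). The highest level was in cycling-like cells in every sample, at 586.7, 297.1, 120.2 and 152.6 CPM, from 348, 427, 742 and 320 UMIs.

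At full depth Cxcl10 UMIs were in 11 of 31, 32 of 80, 102 of 404 and 39 of 121 cycling-like cells, but unevenly. In control replicate 1, 75% of the Cxcl10 UMIs of this class came from 1 of 31 cells. In the other samples the highest cell held 11.2% to 36.8%. Without that cell in each sample, cycling-like cells still had 153.9, 190.2, 106.9 and 104.2 CPM, above quiescent-like cells. One cycling-like cell of control replicate 1 carried 11390 of the 11394 immune-marker UMIs of that class and had 0 Cxcl10 UMIs. Of 7 interferon-response genes, 6 reached 1 CPM in activated-like cells, and Irf1, an interferon-induced transcription factor, moved as Cxcl10 did, at 4.95 ± 0.18 CPM in activated-like and 58.1 ± 11 CPM in quiescent-like cells (SD, n = 4).

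Cxcl12 was also lower in activated-like cells, with 5.69, 4.51, 6.45 and 6.27 CPM, against 16.2, 9.45, 12 and 9.58 CPM in quiescent-like cells. The log2 ratio was -0.63 ± 0.26 (SD, n = 4), and the states did not overlap. The summed level of 7 endothelial markers moved with it, at 1.98 to 2.88 CPM in activated-like and 12.4 to 25.1 CPM in quiescent-like cells, with 1 to 4 of the markers at 0 in each, and its part in the Cxcl12 and Cxcl10 values was not tested.

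Ccl2 and Ccl7 had no such split. Ccl2 stood at 61.2, 81.0, 51.5 and 75.1 CPM in activated-like and 108.5, 72.9, 62.3 and 94.1 CPM in quiescent-like cells, so that the ranges overlapped and 1 of 4 samples was higher in activated-like cells. Ccl7 stood at 38.2, 43.1, 32.2 and 43.7 CPM in activated-like and 49.4, 44.7, 22.7 and 53.0 CPM in quiescent-like cells, again overlapping. The log2 ratios were -0.30 ± 0.38 for Ccl2 and -0.05 ± 0.34 for Ccl7 (SD, n = 4), and both turned positive under other ways of forming the clusters, to 0.46 and 0.34 when the members were kept among the clustering genes.

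For Ccl2 the chaperone-led cluster was the highest state in 3 of 4 samples, at 110.3, 226.4, 61.4 and 105.3 CPM, and control replicate 2 stood above the rest. The summed level of 6 fibro-adipogenic markers was 362 to 583.5 CPM in activated-like, 800.2 to 1272 CPM in chaperone-led and 819.3 to 1400 CPM in quiescent-like cells; its part in Ccl2 and Ccl7 was not tested. Of the 9 members, then, 5 were higher in activated-like than in quiescent-like cells in every sample, Cxcl10 and Cxcl12 were lower in every sample, and Ccl2 and Ccl7 were neither. The gap narrowed when cells with the highest doublet scores were removed, a setting in which the chaperone-led cluster also met the quiescent-like markers; the log2 ratios were then 0.98 for Cxcl1, 1.48 for Cxcl2, 1.72 for Cxcl3, 1.64 for Cxcl5 and -0.30 for Cxcl12.

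**Figure D1:**
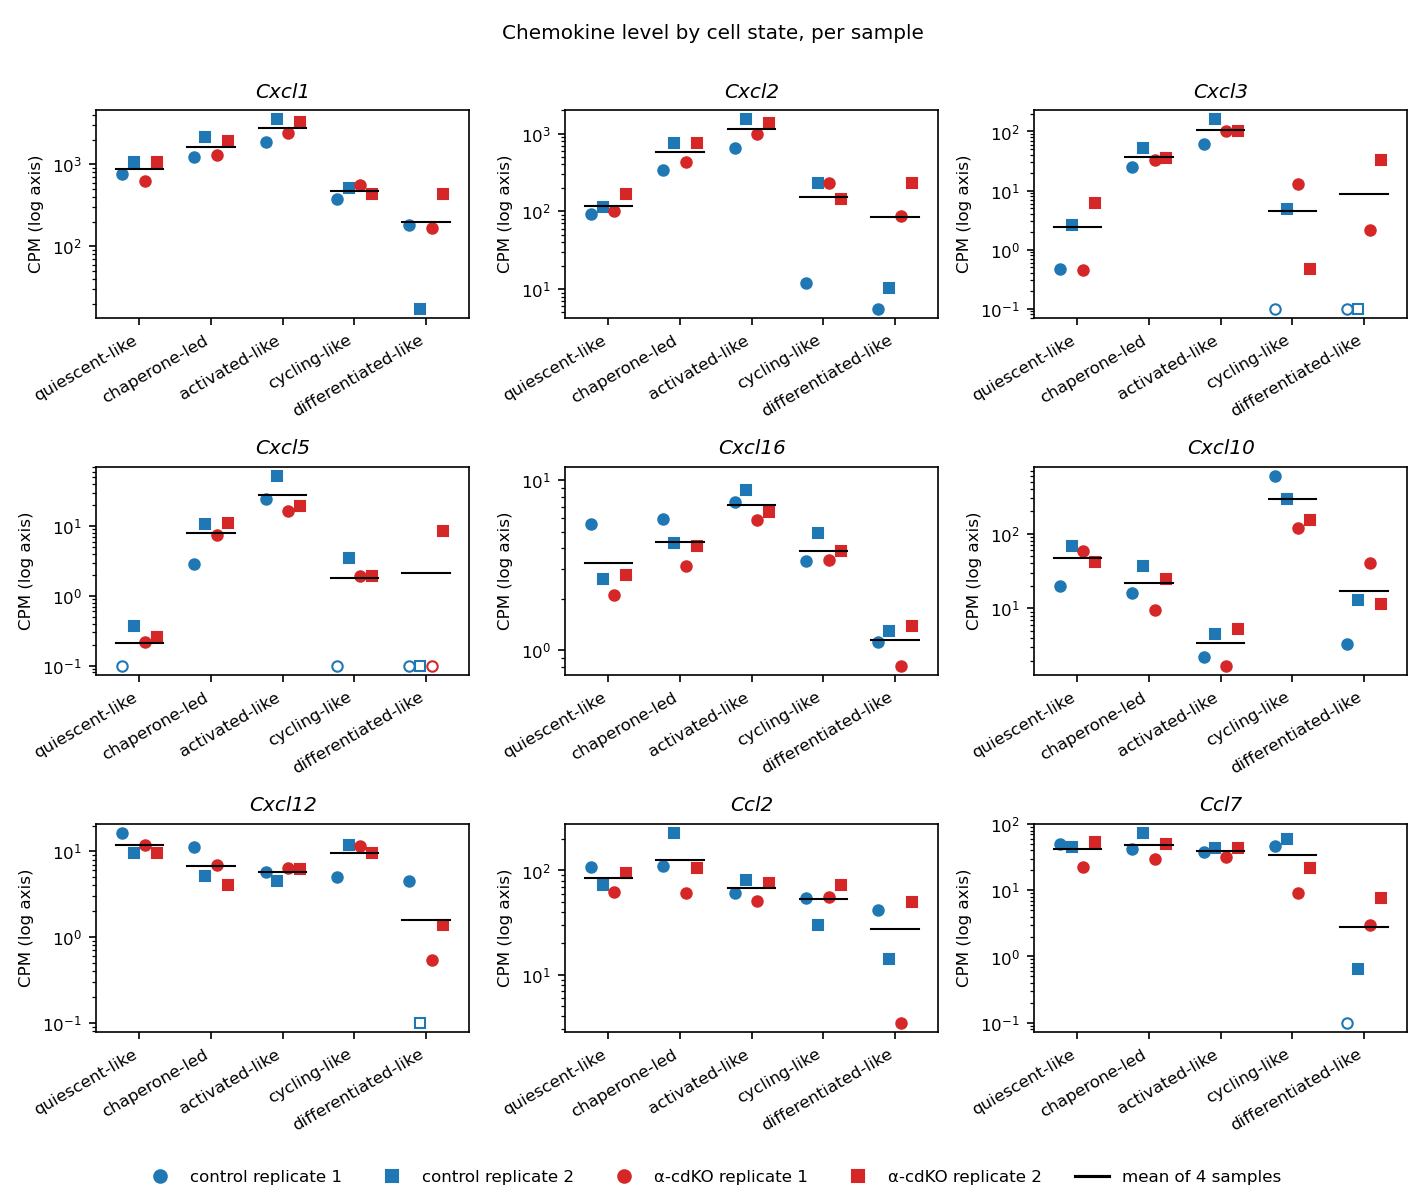
Level of each chemokine (CPM, log axis) in the myogenic states; each filled symbol is 1 of 4 samples, an open symbol at the foot of an axis is a sample at 0, and the line is the mean. Cxcl1, Cxcl2, Cxcl3, Cxcl5 and Cxcl16 are highest in activated-like cells in all 4 samples, Cxcl10 in cycling-like cells, and Ccl2 and Ccl7 overlap between states.

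Shares of cells with a UMI were compared after each cell was thinned to 2000 UMIs, and mature-muscle-like cells, which should lack these genes, gave the background. Before thinning, 824 of the 1331 mature-muscle-like cells came from control replicate 2, so the background is largely that of 1 library and is not matched by sample. Intervals are exact 95% binomial ones, over cells pooled from the 4 samples, and cover counting error only. At least 1 Cxcl1 UMI was found in 57.2% of activated-like cells (56.3 to 58.0) and 35.2% of quiescent-like cells, against 8.74% of mature-muscle-like cells (6.99 to 10.8). Before thinning the first and last of these were 70.6% and 14.4%, at median depths of 7172 and 3048 UMIs. By sample the thinned activated-like share was 49.2%, 63.3%, 54.5% and 63.3%.

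Most members cleared the background in activated-like cells. Cxcl2 UMIs were in 18.6% of these cells against 2.73% in the background, Cxcl3 in 3.09% against 0.656%, and Cxcl5 in 1.24% against 0.328%. Ccl2 was in 4.14% against 0.874%, Ccl7 in 3.44% against 0.765%, Cxcl16 in 1.23% against 0.109%, and Cxcl12 in 1.06% against 0.109%. Cxcl10 did not clear it, at 0.366% of activated-like cells (0.265 to 0.493) and 0.328% in the background (0.0677 to 0.955). Its share there is not told apart from background, though single activated-like cells held up to 32 Cxcl10 UMIs before thinning. Cxcl10 was above the background in quiescent-like (3.18%), chaperone-led (2.28%) and cycling-like cells (11.9%). Cxcl3 and Cxcl5 in quiescent-like cells, at 0.175% and 0.0194%, were below the background, so its share is not a floor for myogenic cells. Cxcl5 in the chaperone-led cluster, at 0.647%, was within the background interval (0.0677 to 0.955).

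Some of the members were found more often in the few sorted cells of other types, pooled over the samples. Cxcl12 UMIs were in 69.2% of endothelial-like cells (57.8 to 79.2, 78 cells) and 64.5% of mural-like cells, at 1239 and 901 CPM, or 874 and 512 CPM without control replicate 1, the highest library in both. Ccl2 and Ccl7 in fibro-adipogenic-like cells were uneven between libraries. Ccl2 stood at 613.3 CPM, with UMIs in 9 of 49 cells (18.4%). Before thinning 238 of its 375 UMIs came from control replicate 2 and 133 from α-cdKO replicate 1. Without control replicate 2 it was at 290.6 CPM. Ccl7 stood at 827.5 CPM, with UMIs in 5 of 49 cells (10.2%), but 477 of 506 UMIs came from α-cdKO replicate 1, without which it was at 110.4 CPM, and 2 libraries had none. Cxcl2 was in 32.3% of immune-like cells (16.7 to 51.4, 31 cells), and Cxcl10 in 14.1% of endothelial-like cells (7.26 to 23.8). For Cxcl1, no class of other cells reached the activated-like share, with 30.6% of fibro-adipogenic-like cells the highest of those named by other markers.

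**Figure D2:**
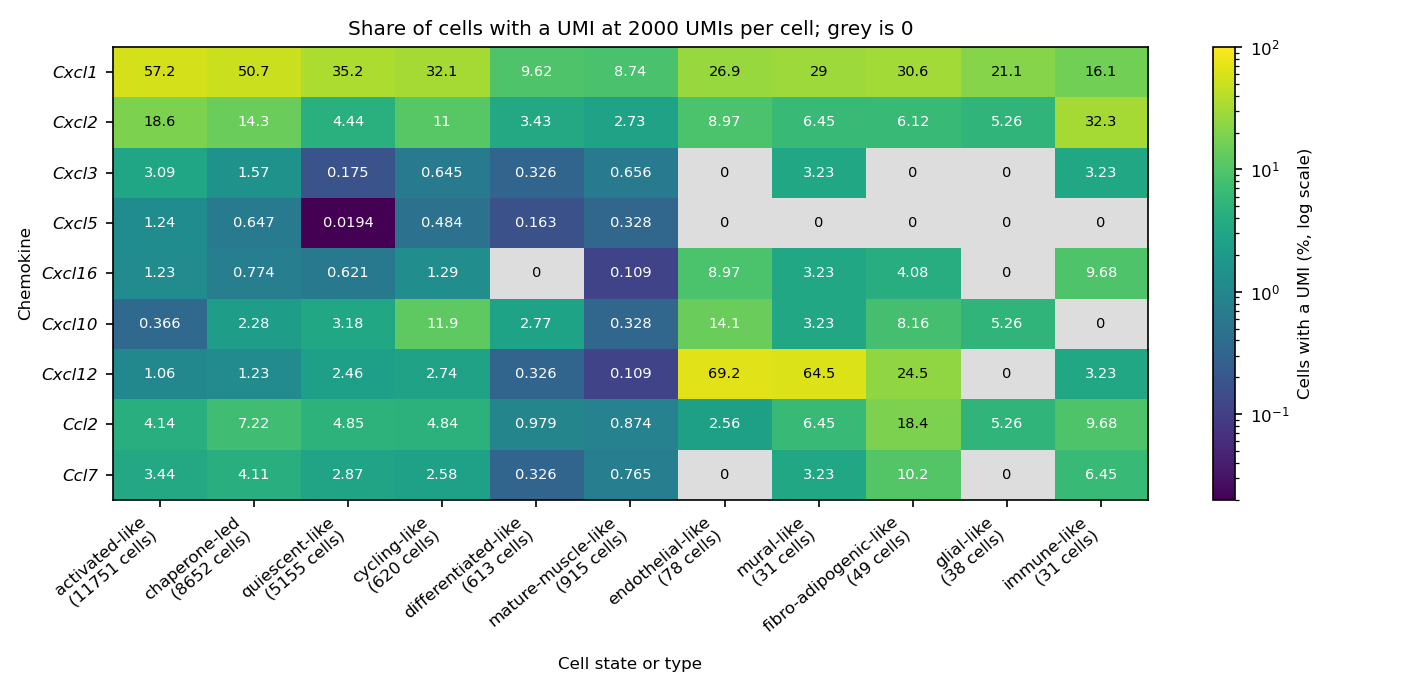
Percent of cells with at least 1 UMI of each chemokine after thinning to 2000 UMIs, with a colour scale in percent on a log scale and the value written in each field; cell classes are columns, pooled over 4 samples. Cxcl1 is found in 57.2% of activated-like and 8.74% of mature-muscle-like cells, and Cxcl12 in 69.2% of endothelial-like cells.

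Within the activated-like class the transcripts were unevenly held. At 2000 UMIs per cell, 56.2%, 68.7%, 58.4% and 67.6% of activated-like cells had a UMI of any member, while 3.23%, 6.16%, 3.66% and 5.56% had UMIs of 3 or more members. The 10% of cells with most Cxcl1 UMIs held 54.7% of its UMIs (50.4 to 60.7 by sample), close to the 56.9% for Myod1. For Cxcl2 the top 10% held 91.2% (87.5 to 96.9), and single cells reached 542 Cxcl1 UMIs and 688 Cxcl2 UMIs.

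The remaining members had a UMI in fewer than 10% of these cells, so the 1% of cells with most UMIs was used. It held 57.2% to 76.3% of Cxcl3, 89.5% to 95.2% of Cxcl5, 57.0% to 67.1% of Ccl2 and 50.4% to 65.8% of Ccl7 by sample. For Cxcl1 the top 1% held only 10.3% to 14.9% and for Cxcl2 23.2% to 34.0%. Cxcl1 was thus spread over many activated-like cells, and Cxcl5 was held by a few of them.

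Some pairs of members were found together in activated-like cells more often than their separate shares give. For 14 of 36 pairs the share of cells with both, over the product of their shares, was above 1 in all 4 samples, and over other settings 12 to 17 pairs were. The widest such ratio was that of the neighbours Ccl2 and Ccl7, at 6.12, 5.87, 5.14 and 4.18, from 85 cells with both. Cxcl2 and Cxcl3 followed at 2.04 (1.90 to 2.33, 142 cells), and Cxcl1 and Cxcl2 gave 1.54 (1.37 to 1.69) from 2000 cells. A ratio cannot exceed 1 over the larger share of its pair, so pairs with the widely found Cxcl1 have a low ceiling. The ratios therefore do not rank pairs by how closely they go together. The monocyte and neutrophil ligands also met, with 1.68 (1.52 to 1.86) for Cxcl2 with Ccl2 and 1.32 (1.25 to 1.43) for Cxcl1 with Ccl2. The 14 pairs rest on 11 to 2000 cells with both. Pairs of other genes were not measured in this way, so the ratios are not shown to be particular to the members.

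Cxcl10 stood outside these pairs. With Cxcl1 its ratio was 0.912 (0.441 to 1.16, 31 cells), from a Cxcl10 share that is not above background there. Pearson correlations of log-normalized values over the cells of a sample were 0.41 to 0.51 for Cxcl1 with Cxcl2 and 0.22 to 0.32 for Ccl2 with Ccl7. For Cxcl2 with Cxcl3 they averaged 0.13, so the order of these pairs was unlike that of the ratios. All cells of a sample share 1 library and differ in depth, so these are descriptions.

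**Figure D3:**
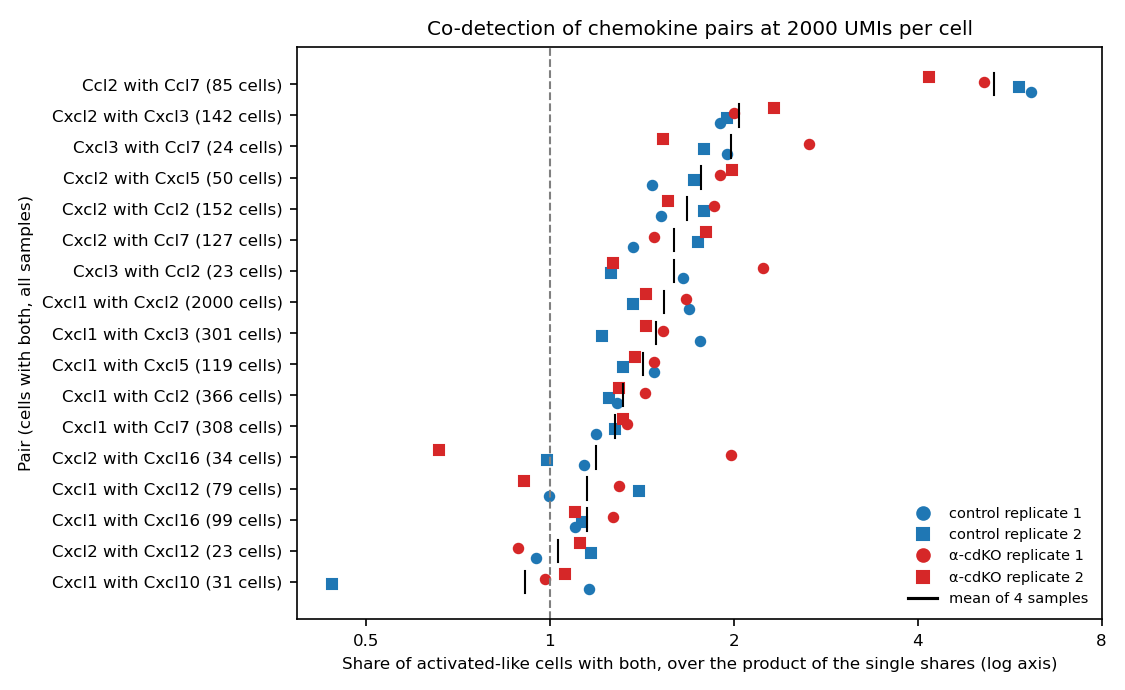
Observed over expected share of activated-like cells with UMIs of both members of a pair, at 2000 UMIs per cell (log axis), for pairs found together in at least 20 cells; symbols are samples, the black mark is their mean and the dashed line is a ratio of 1. Ccl2 with Ccl7 is at 5.33, Cxcl2 with Cxcl3 at 2.04 and Cxcl1 with Cxcl2 at 1.54.

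Among 2034 other genes of at least 50 CPM, the gene most like Cxcl1 over activated-like cells was Nfkbia, which encodes the inhibitor that holds NF-kappaB in the cytoplasm and is itself an NF-kappaB target. The mean correlation was 0.347, and the lowest of the 4 samples 0.320. Nfkb1 (0.224), an NF-kappaB subunit, and Kdm6b (0.213), a histone demethylase, came next, and the same 3 genes led for Cxcl2 at 0.232, 0.162 and 0.166. Nfkbia also led for Ccl2 (0.123) and Ccl7 (0.135), values too weak in sparse counts to count as a finding, and for the other members no gene exceeded 0.071.

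All 13 listed NF-kappaB factors and feedback genes reached 1 CPM in activated-like cells. Nfkb1 stood at 595.9 ± 14.2 CPM there (SD, n = 4) and at 143.3 CPM in quiescent-like cells, and Rela, the main activating subunit, at 144.6 and 47.9 CPM. Nfkbia was at 566.1 and 375.1 CPM. Zfp36, an RNA-binding protein that destabilizes cytokine mRNAs, went the other way at 167.3 and 671.9 CPM.

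Receptors were scarce. Of 22 receptor genes, 3 reached 1 CPM in activated-like cells and 9 had no UMI there. Ackr3, an atypical receptor that takes up Cxcl12, stood at 213.1 ± 53.7 CPM in activated-like and 108.8 CPM in quiescent-like cells. Cxcr4, the signalling receptor of Cxcl12, stood at 16.6 ± 4.21 CPM and 36.7 CPM, in the opposite order (SD, n = 4). Of the listed cytokine and adhesion genes 5 of 9 reached 1 CPM, among them Lif, an interleukin-6 family cytokine, at 32.9 against 4.09 CPM and Vcam1, an integrin ligand, at 518.2 against 241.6 CPM in quiescent-like cells. Of 28 other chemokines 7 reached 1 CPM. Chemokine genes next to the members on the chromosome were scarce, as Ppbp had 22 UMIs and Pf4 72 in all activated-like cells and Cxcl15 and Ccl12 none; Ccl11 was an exception with 906.

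No chemokine of the list was called different between genotypes. UMIs were summed per sample and state, all genes were fitted with the quasi-likelihood test of edgeR, and a gene was called at a Benjamini-Hochberg adjusted p under 0.05. In activated-like cells 0 of 9 members were called, where 20 of 12164 genes (0.164%) were; 1 member, Cxcl5, had an unadjusted p under 0.05, and DESeq2 called 0. Over all myogenic cells 0 of 9 were called by edgeR and by DESeq2 (25 of 14621 genes, 0.171%), with 2 at an unadjusted p under 0.05, Cxcl5 and Cxcl16. In quiescent-like cells 0 of the 8 members tested were called by either tool (19 of 11838 genes, 0.161%), with 0 at an unadjusted p under 0.05; Cxcl5 did not pass the filter on low counts. In the chaperone-led cluster 0 of 9 were called by either tool (21 of 12437 genes, 0.169%), with Ccl2 at an unadjusted p under 0.05. Of all genes tested, 6.72% had an unadjusted p under 0.05 by edgeR in activated-like and 7.1% in all myogenic cells. The share was 8.6% in quiescent-like cells and 8% in the chaperone-led cluster. With 2 samples per genotype, p-values measure the spread between these pools of mice.

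The widest genotype difference in activated-like cells was that of Cxcl5. Its values were 24.9 and 51.5 CPM in control and 16.7 and 19.5 CPM in α-cdKO, so that the groups did not overlap, as was the case for 36.9% of the 12164 genes tested. The log2 fold change of α-cdKO over control was -1.05 (SE 0.31, 95% interval -1.75 to -0.34), with an adjusted p of 0.528 in edgeR and 0.0878 in DESeq2. It ran from -1.49 without control replicate 1 to -0.41 without control replicate 2, and was called under neither. In the chaperone-led cluster Cxcl5 had the opposite sign, 0.48 (-0.67 to 1.63), an interval that holds 0. Cxcl1 overlapped between genotypes, with a log2 fold change of 0.08 (-0.51 to 0.68), as did Cxcl2 at 0.16 (-0.61 to 0.92) and Cxcl3 at -0.10 (-0.90 to 0.71). These intervals reach to both sides of 0 and are wide, so equal levels are not shown.

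The intervals of the other members in activated-like cells also held 0. Ccl2 had a log2 fold change of -0.14 (-0.63 to 0.36), Ccl7 -0.07 (-0.51 to 0.37), Cxcl10 0.11 (-1.05 to 1.27), Cxcl12 0.35 (-0.13 to 0.83) and Cxcl16 -0.36 (-0.82 to 0.10). The median over the 9 members was -0.07, beside -0.01 over all genes tested, and control and α-cdKO samples were apart for 3 of 9 members, beside the 36.9% of all genes. Over all myogenic cells the member median was -0.23, with Cxcl5 at -0.79 (-1.54 to -0.03, adjusted p 0.692) and Cxcl16 at -0.50 (adjusted p 0.685, edgeR).

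In quiescent-like cells control and α-cdKO samples overlapped for all 8 members tested, where they were apart for 39.8% of the 11838 genes, and the member median was -0.13 beside -0.01 over all genes. Cxcl1 was at -0.09 (-0.69 to 0.50), Cxcl2 at 0.40 (-0.12 to 0.93) and Cxcl10 at 0.19 (-0.82 to 1.21). Ccl2 and Ccl7 were at -0.16 (-0.68 to 0.36) and -0.26 (-0.99 to 0.47). Cxcl3 had the widest interval, 1.14 (-1.06 to 3.33), on 3 to 72 UMIs per sample.

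In the chaperone-led cluster Ccl2 was at 110.3 and 226.4 CPM in control and 61.4 and 105.3 CPM in α-cdKO, a log2 fold change of -1.01 (SE 0.36, -1.82 to -0.19, adjusted p 0.549, edgeR). Leaving out α-cdKO replicate 2 moved Ccl2 to -1.45, and Cxcl10 there from -0.63 to -1.46. Leaving out control replicate 2 moved Ccl2 to -0.35, the smallest of these differences. Without the filter on low counts Ccl2 was called by edgeR at an adjusted p of 1.32e-07. In that setting 345 genes were called in this cluster, against 21 with the filter, so the call is not particular to Ccl2.

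Whether the genotype difference was unlike in activated-like and quiescent-like cells was tested as an interaction. It called 0 of 9 members by edgeR, the only tool run for it, and 1 of 13022 genes (0.00768%). Of the members 0 had an unadjusted p under 0.05, beside 5.55% of all genes. Single libraries moved the log2 differences. Cxcl2 went from -0.12 to -0.49 without control replicate 1. Cxcl1 went from 0.25 to 0.43 without control replicate 2. Cxcl3 went from -1.28 to -2.24 without control replicate 2 and to -2.15 without α-cdKO replicate 1. Cxcl3 rests on 3 to 72 UMIs per sample in quiescent-like cells.

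**Figure D4:**
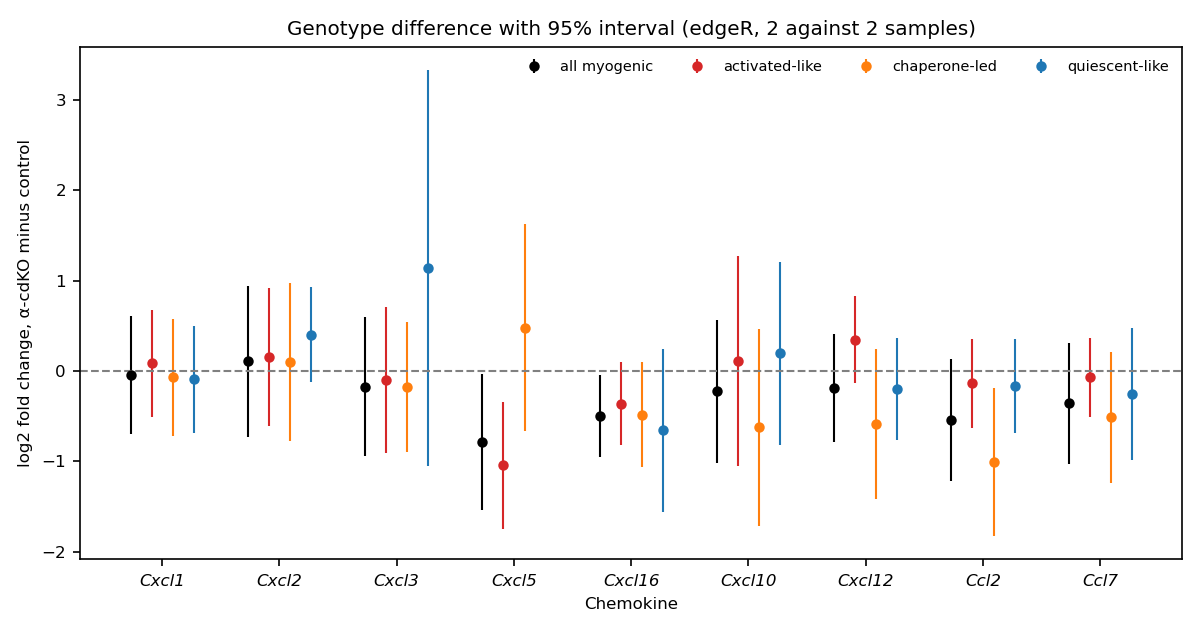
Log2 fold change of α-cdKO over control for each member in activated-like cells, all myogenic cells, quiescent-like cells and the chaperone-led cluster, with 95% intervals from edgeR (2 samples per genotype). No member passes an adjusted p of 0.05; Cxcl5 in activated-like cells is at -1.05 and Ccl2 in the chaperone-led cluster at -1.01.

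Of the listed pathway genes 1 was called, among 38 tested in quiescent-like cells, where 0.161% of all genes were called. Il6, the cytokine, was lower in quiescent-like cells of α-cdKO mice, at 2.77 and 2.85 CPM against 12.8 and 9.21 CPM in control. The log2 fold change was -1.91 (SE 0.25, -2.48 to -1.34, adjusted p 0.037, edgeR), from 215 UMIs over the 4 samples. The call was lost without control replicate 1 (-1.70, adjusted p 0.378), control replicate 2 (-2.10, adjusted p 0.0647) or α-cdKO replicate 1 (-1.88, adjusted p 0.108), with the direction kept. In the other fits 0 genes of the receptor, other chemokine, NF-kappaB, cytokine, interferon and shedding lists were called by edgeR. Il6 was at -0.18 (-1.04 to 0.68) in activated-like and -1.01 (-1.83 to -0.19) in chaperone-led cells. In activated-like cells 8 of the 40 list genes tested (20%) had an unadjusted p under 0.05, beside 6.72% of all genes. These were 2 of 5 receptors, 2 of 7 other chemokines, 1 of 13 NF-kappaB genes, 1 of 5 cytokine and adhesion genes, 2 of 6 interferon genes and 0 of 4 shedding genes, and the lists were chosen with earlier results of these data known. Ccl19, a Ccr7 ligand, stood at 52.5 and 70.0 CPM in control and 28.0 and 30.2 CPM in α-cdKO over all myogenic cells, a log2 fold change of -1.08 with an adjusted p of 0.148 in edgeR and 2.33e-05 in DESeq2. DESeq2 called Ccl19 in all myogenic, activated-like and chaperone-led cells, and DESeq2 calls over all list genes are not given here. Near-identical copies of Ccl19 can share its reads, so its level is uncertain.

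The genotypes differ in their make-up by Xist and Y-linked UMIs, because α-cdKO replicate 1 held both sets of cells. In its activated-like cells Cxcl5 was at 8.17 CPM in cells with Xist (106 UMIs) and 29.8 CPM in cells with Y-linked UMIs (306 UMIs). Among cells with Y-linked UMIs alone, Cxcl5 was at 26.7 and 38.5 CPM in control and 29.8 and 20.0 CPM in α-cdKO, and the genotypes then overlapped. Within α-cdKO replicate 1, Cxcl3 was at 75.0 CPM in the Xist set and 140 CPM in the Y-linked set, and Ccl7 at 23.4 and 45.3 CPM. Cxcl2 went the other way, at 1137 and 910.1 CPM. These are 2 sets of cells from 1 pool of mice, so they show the spread inside a sample and carry no test of sex or genotype.

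**Figure D5:**
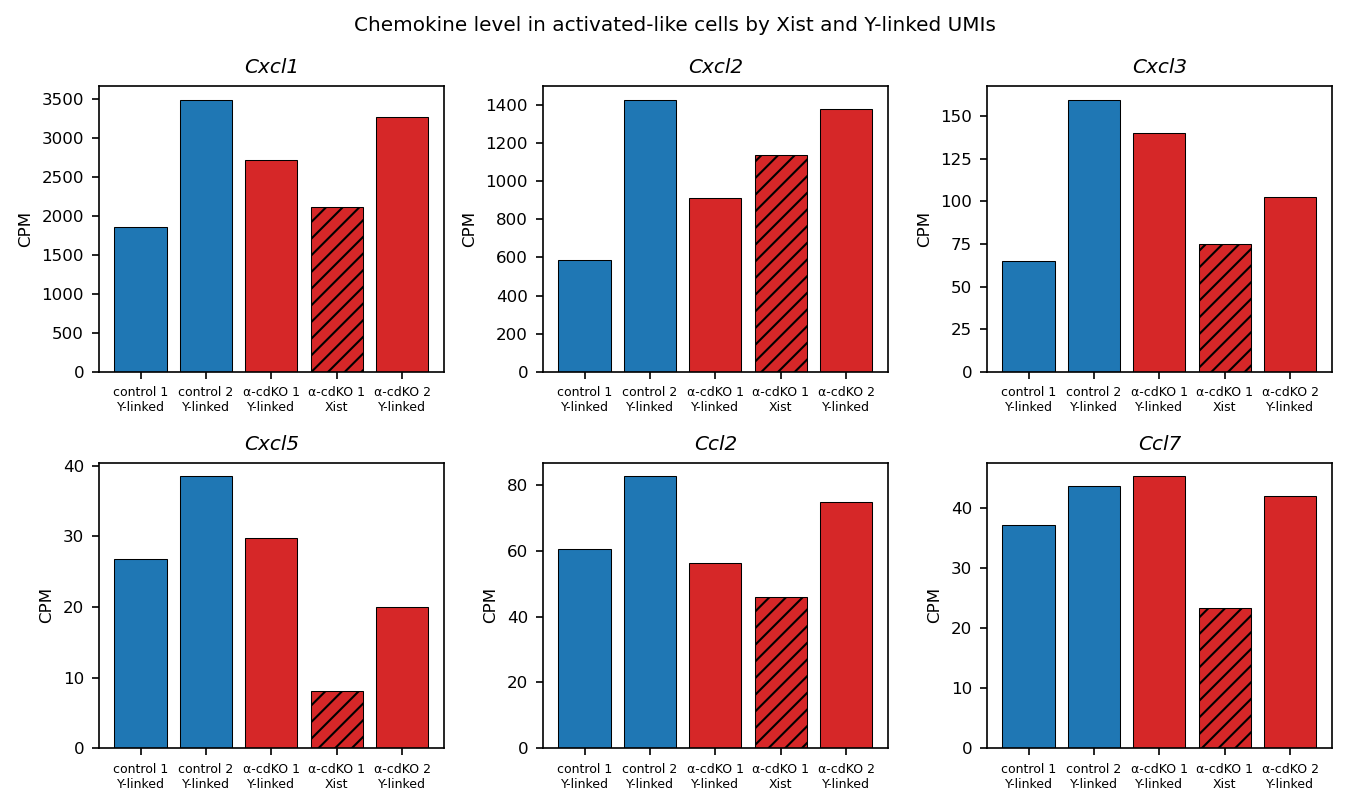
Level of 6 of the chemokines (CPM) in activated-like cells split by Xist and Y-linked UMIs; each bar is 1 sample and set, and the hatched bar is the Xist set of α-cdKO replicate 1. In α-cdKO replicate 1 Cxcl5 is at 8.17 CPM in the Xist set and 29.8 CPM in the Y-linked set, and for Cxcl5 the Y-linked sets of both genotypes overlap.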

How the data were processed

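Single-cell 3′ RNA-seq (10x Genomics v3) was run on tdTomato+ cells of 2 control and 2 α-cdKO samples, with 30000 cells loaded per sample. The deposited matrices hold raw UMI counts per gene and cell, made by the authors with Cell Ranger on the GRCm38 (mm10) reference; Seurat 4.0.3 is named in the submitters' processing notes. Cells with at least 1000 UMIs, 400 genes and under 15% mitochondrial UMIs were kept. Counts were log-normalized in Seurat 5.3.0 (R 4.3.3), 2000 variable genes without the 9 members gave 30 principal components, samples were aligned with a re-implementation of Harmony, and Louvain clusters (resolution 0.2) were named from at least 3 markers raised 1.5-fold; clusters of non-muscle cells were split again at 0.8. Scrublet (scanpy 1.11.5) called 0 to 5 doublets per sample at its own threshold and did not work; removing the highest scores, at 0.8% per 1000 cells, was an alternative.

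UMI counts were summed per sample and state, filtered (filterByExpr), TMM-scaled and fitted in edgeR 4.0.16 (quasi-likelihood) over all genes, with DESeq2 1.42.0 as an alternative; the interaction has the sample as a block. Scripts were tested on simulated data. All 9 members are named; from the lists (22 receptors, 28 other chemokines, 13 NF-kappaB, 9 cytokine, 7 interferon and 4 shedding genes) those with the highest level or past the test, and per member the 3 genes of highest correlation; list genes beyond these were chosen after their values were seen. Members and lists were chosen with earlier results of these data known. Same-numbered replicates did not deviate together, so the number was no block. Alternatives were other scaling, filters, clusterings, integration, thinning to 4000 UMIs and leaving out each library.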

Additional observations from a re-analysis of the deposited data

Results flagged for a closer look

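Of all genes tested for a genotype difference that is unlike in activated-like and quiescent-like cells, Cdk5rap1 was the single one called, with a log2 difference of 2.63 (SE 0.34, adjusted p 0.00619, edgeR). It is no member of the chemokine list and was picked after its values were seen. Cdk5rap1 stood at 0.875 and 1.23 CPM in control and 17.9 and 14 CPM in α-cdKO activated-like cells. In quiescent-like cells it stood at 3.82 and 3.96 CPM in control and 10.5 and 8.62 CPM in α-cdKO, higher in α-cdKO in both states. No member met the criteria for a closer look.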

How the results depend on the processing

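Over all other settings, 104 of 147 counts stayed within 1.5 times the main one, and 314 of 385 single values kept their direction and side of the threshold; the cause of the changes below was not tested. Genes called over all myogenic, activated-like, quiescent-like and chaperone-led cells and in the interaction were 25, 20, 19, 21 and 1. DESeq2 called 117, 51, 31 and 56 in the first 4. Without a filter the 5 counts were 11, 3, 300, 345 and 51, with 1 member called in the chaperone-led cluster. Scaling by DESeq2's size factors gave 2 in the interaction, and all kept cells in place of myogenic ones gave 0. Calls in quiescent-like cells fell to 8 with at least 2000 UMIs per cell, 7 with the members among the clustering genes and 10 with no integration. Joining the chaperone-led cluster to activated-like cells, chosen after seeing the data, gave 32.

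Leaving out 1 library gave 0 to 57 calls over all myogenic cells, 0 to 83 in activated-like, 0 to 46 in quiescent-like and 23 to 198 in chaperone-led cells, and 14 to 254 in the interaction. The 0 in the first 3 is without control replicate 1, and over all myogenic cells also without control replicate 2, and the highest, but for the interaction (control replicate 2), without α-cdKO replicate 2. Between 0 and 2 members were called in the chaperone-led cluster and in the interaction, and 0 elsewhere. With 1 sample left in a genotype, that sample is assumed to vary like the others.

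A replicate block called 13 genes over all myogenic and 34 in quiescent-like cells and turned Cxcl10 to -0.02 (-0.0153) and Cxcl3 to 0.06 (0.0582) in activated-like cells; it called no member. Same-numbered samples correlated at -0.191, -0.161, 0.015 and -0.114 in the 4 fits. Crossed pairs, added after seeing the data, called 248, 91, 105 and 72 genes, and Cxcl3 became 0.06 (0.0569).

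Log2 fold changes near 0 in activated-like cells changed sign. Without 1 library Cxcl1 ran from -0.31 to 0.62, Cxcl2 from -0.34 to 0.92, Cxcl3 from -0.63 to 0.76, Cxcl10 from -0.92 to 0.70, Ccl2 from -0.42 to 0.10 and Ccl7 from -0.29 to 0.13. Cxcl10 was -0.47 with the members kept and -0.61 with no integration. With the chaperone-led cluster joined, Cxcl1 was -0.00 (-0.0037), Cxcl10 -0.40 and Cxcl12 -0.11. In the chaperone-led cluster Cxcl10 ran from -1.46 to 0.14 without 1 library, and in the interaction Cxcl2 from -0.49 to 0.32 and Cxcl3 from -2.24 to 1.66. Il6 in quiescent-like cells kept its direction in 14 of 14 settings, with adjusted p from 1.36e-09 to 0.605.

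The activated-like over quiescent-like log2 ratio of Ccl2 and Ccl7 became 0.46 and 0.34 with the members kept, 0.35 and 0.25 with no integration, 0.16 and 0.24 with at least 2000 UMIs, and 0.10 and 0.059 with the chaperone-led cluster joined; Ccl7 ran from -0.21 to 0.041 without 1 library. The other 7 members kept their direction in all 10 settings. Depth limits Cxcl10 in activated-like and Cxcl3 and Cxcl5 in quiescent-like cells, where shares were not above background.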
